A study of Saccharomyces cerevisiae with 12 samples.

Results

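Growth limited by ethanol was compared with growth limited by glucose in the yeast Saccharomyces cerevisiae, gene by gene across the genome. The comparison used 6 of the 12 arrays of a study of 4 carbon sources, 3 from ethanol cultures and 3 from glucose cultures, each from its own aerobic chemostat. A chemostat feeds fresh medium at a fixed rate, so that all cultures grew at the same speed. Members were the probe sets, other than control probe sets, with a signal above 12 on at least 3 of these 6 arrays. They numbered 6758 of 9275, and 5569 of them stood for 1 gene each, 5218 of the 5656 genes that had a probe set of their own. Of the rest, 255 matched several genes and 934 had no gene name. Just inside that limit, 208 probe sets were above 12 on exactly 3 arrays, and for 61 of these the 3 were the ethanol arrays. Just outside it, 233 were above 12 on exactly 2 arrays.

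The ethanol cultures were of the wild-type MATa strain CEN.PK113-7D, on a defined mineral medium with 256 mmol of carbon per litre. Their dissolved oxygen was 60 to 75% of air saturation. The glucose cultures come from a separate set of records whose protocol names no strain, and their dissolved oxygen stayed above 80%. Both groups shared a dilution rate of 0.1 per hour, 30 °C, pH 5, a volume of 1 litre, air at 0.5 litre per minute and quenching in liquid nitrogen. Acetate and maltose cultures, 3 each, had the same strain and protocol as the ethanol cultures and are used for reference. Since the set of records goes with the carbon source, the 2 cannot be told apart. The a-cell gene MFA1 (a-factor) read 1010.1, 1959.6 and 1621 on the ethanol arrays and 3224, 1466 and 1851 on the glucose arrays. The alpha-cell gene STE3 (a-factor receptor) read 36.4, 25.3 and 30.4 on the ethanol arrays and 42.3, 41.7 and 32.1 on the glucose arrays, low in both groups.

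Ethanol is oxidised to acetaldehyde and acetate and enters metabolism as acetyl-CoA. A cell living on it burns acetyl-CoA in the mitochondria, makes dicarboxylic acids through the glyoxylate cycle and builds every sugar phosphate by gluconeogenesis. A glucose limited cell takes up hexose with high-affinity transporters and gains pyruvate, pentoses and NADPH on the way down. Carbon limitation keeps the residual carbon source low, so glucose repression is much reduced whichever carbon source is fed.

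Median signals were 44.8 to 48.2 on the ethanol arrays and 45.5 to 47.5 on the glucose arrays. Pearson's r of log2 signals over the tested probe sets, which are not independent, was 0.95 to 0.97 among ethanol arrays, 0.962 to 0.977 among glucose arrays and 0.913 to 0.958 between the groups. RNA quality was read from the actin control, whose 3' over 5' signal ratio was 3.31, 9.27 and 13.98 on the ethanol arrays and 1.84, 2.60 and 1.96 on the glucose arrays. The highest signal was 9190, 13867 and 14005 on the ethanol arrays, against 3732, 9355 and 3765 on the glucose arrays. The actin ratio was higher on every ethanol array than on any glucose array, most of all on ethanol arrays 2 and 3. The highest signal was lower on glucose arrays 1 and 3 than on any ethanol array, but glucose array 2 stood above ethanol array 1. Glucose array 2 also carried the code letter V in its sample name. The ethanol and acetate arrays, glucose arrays 1 and 3 and maltose array 3 carried P, and maltose arrays 1 and 2 carried M. The meaning of these letters is not given. Leaving out glucose arrays 1 and 3 thus keeps only the V array, while keeping only letter P drops it. The actin ratio thus goes with the carbon source, and the highest signal does so only in part. Calls were therefore set beside 3 further settings, with only ethanol array 1, with the 3'/5' ratio in the model and without glucose arrays 1 and 3, and named calls that end there are said to do so; beyond these, the part of the differences was not tested. Where 3 adjusted p-values of a gene are given for these settings, they stand in this order. Signals are averages over a culture, so fewer cells with a transcript and less of it per cell cannot be told apart.

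By limma, with Benjamini-Hochberg adjustment over all 6758 probe sets, 186 probe sets (2.75%) differed between ethanol and glucose cultures at an adjusted p under 0.05. On ethanol 120 were higher (1.78%) and 66 lower (0.977%), and 149 differed at least 2-fold (95 higher, 54 lower). The limma p-values set each change against the spread among cultures of the same carbon source, pooled over all carbon sources of the study. The changes were centred on log2 -0.0012, and their median standard error was 0.31, larger under a mean signal of 100 (0.35) than above it (0.25). Counted once per gene, by its brightest probe set, 137 of 5218 genes were called (2.63%), 82 higher (1.57%) and 55 lower (1.05%). These shares are the background for every list of genes named here. In 184 of the 186 called probe sets the ethanol and glucose signals did not overlap, and the exceptions were SSA1 and a probe set shared by SSA1 and SSA2. Counted per gene rather than per probe set, 26.8% of all tested genes had groups apart. Since nearly all calls had groups apart, separate groups of called genes are given below as a description and add no support to a call. The highest and lowest changes named were also picked from calls whose groups did not overlap. Leaving out ethanol array 2 or 3 or glucose array 3 left 76, 84 and 81 calls. With only ethanol array 1, 33 of the 186 kept their calls, among them PCK1, FBP1, MDH2, CDA2, YAT1, CRC1, ACH1, REG2, GDH3 and NDE2 on the higher side and FDH1, PDR12, HXK1, MAL11, CYC7, PIR3, SIP18 and SPI1 on the lower side. Members of a list named below without a call were picked for their known role after their values were seen.

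**Figure D1:**
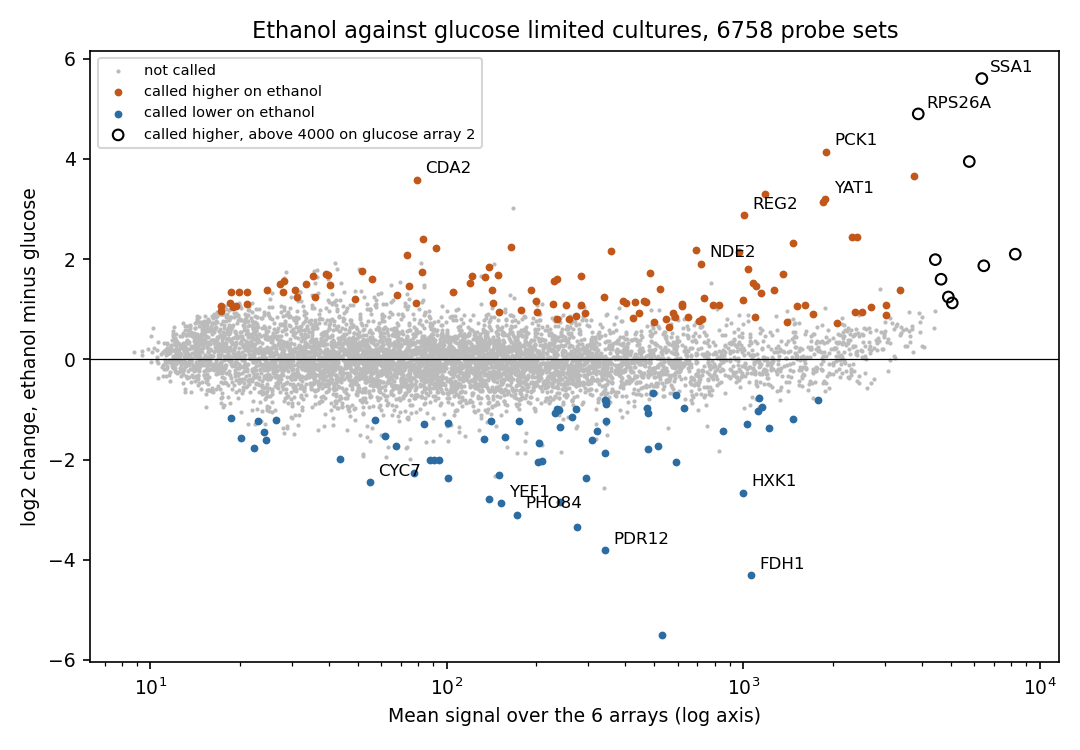
Each point is a probe set: the horizontal axis is its mean signal over the 6 arrays (log axis) and the vertical axis its log2 change, ethanol minus glucose. The 120 orange or ringed points were called higher and the 66 blue points lower; the 9 ringed points read above 4000 on glucose array 2 and lie at the bright end of the axis.

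The 5 genes taken as marks of these cultures set the scale of the response; they were chosen with these values known, so they are given as a description. PCK1, encoding phosphoenolpyruvate carboxykinase, the entry step of gluconeogenesis, read 2928, 4018 and 3851 on the ethanol arrays and 212, 225 and 171 on the glucose arrays. FBP1, encoding fructose bisphosphatase, a later step of that pathway, read 2045, 2695 and 1709 on ethanol and 190.1, 248 and 205 on glucose. In both genes every ethanol signal lay far above every glucose signal, with log2 changes of 4.15 ± 0.23 and 3.31 ± 0.23 (SE, n = 3 each). CDA2, a chitin deacetylase gene of the spore wall, read 163, 154 and 131 on ethanol and 9.80, 4.40 and 13.1 on glucose, where 2 of 3 signals were below the floor of 12, so its change of log2 3.59 is understated. A second CDA2 probe set read 116, 99.9 and 170 on ethanol and 46.7, 93.4 and 49.6 on glucose and was not called (log2 1.06 ± 0.46, limma adjusted p = 0.248). FDH1, encoding formate dehydrogenase, read 91.3, 108 and 100.1 on ethanol and 2129, 1457 and 2501 on glucose (log2 -4.31 ± 0.44). Its second probe set gave log2 -5.50 ± 0.55; FDH2 is a near-identical gene, and the array may read both. FDH1 was the call among 3 tested genes of formate and formaldehyde oxidation. PDR12, an exporter of weak organic acids, read 57.4, 41.8 and 37.2 on ethanol and 802, 620.3 and 492 on glucose (log2 -3.81 ± 0.35). Both lower genes had every ethanol signal below every glucose signal.

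**Figure D2:**
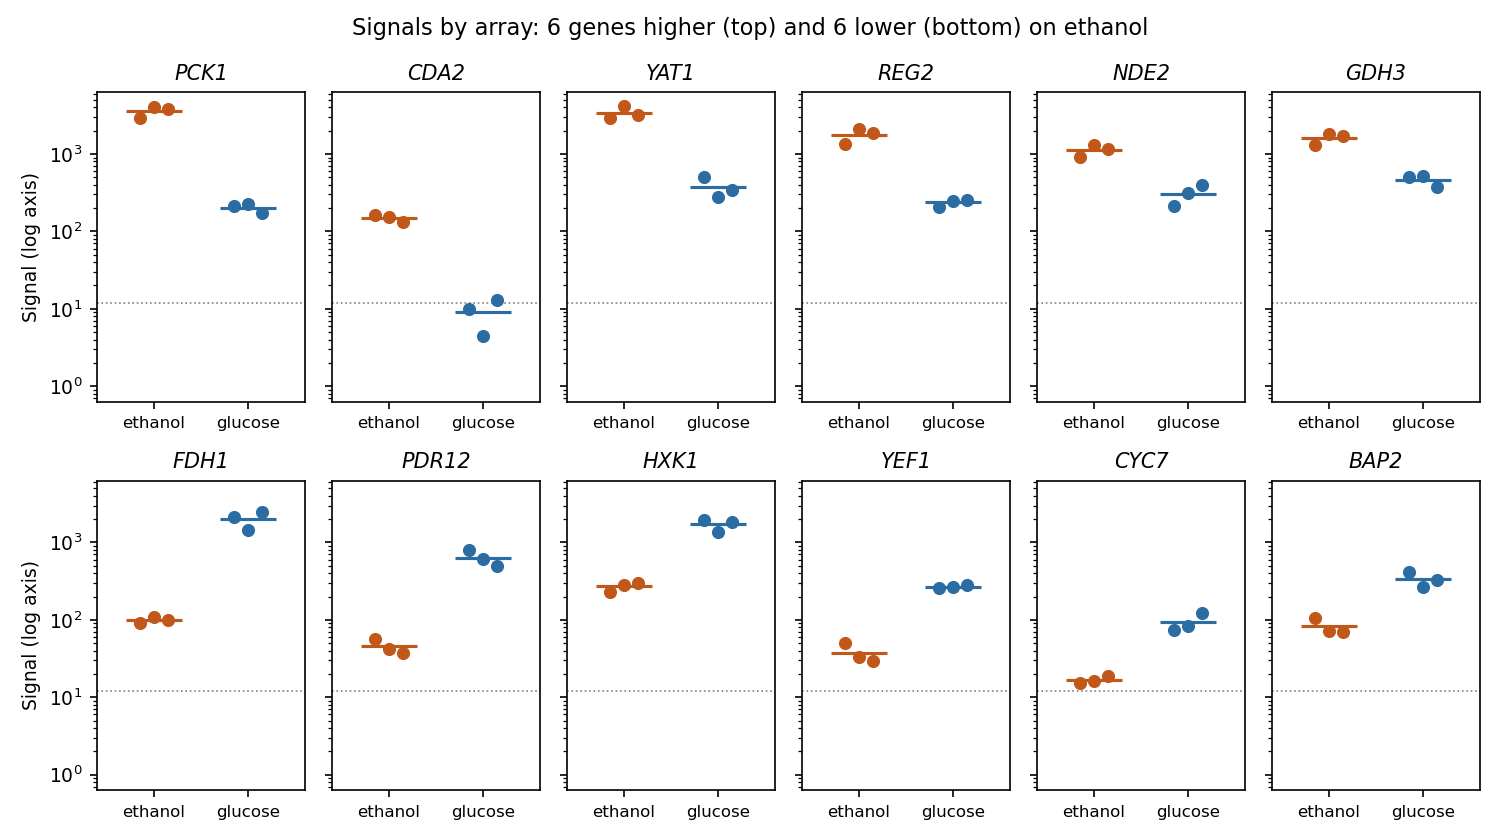
Signals on each array (log axis) of 6 genes higher on ethanol (top row) and 6 lower (bottom row), with ethanol arrays left, glucose arrays right, the group mean as a bar and the floor of 12 dotted. In all 12 panels the ethanol and glucose signals do not overlap, and CDA2 is the panel where 2 glucose signals fall below the floor.

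Beyond gluconeogenesis and the glyoxylate cycle, where 6 of 8 tested genes were called higher, 4 genes that move acetyl units between compartments rose. YAT1, a carnitine acetyltransferase gene of the outer mitochondrial membrane, read 2892, 4157 and 3167 on ethanol and 505, 277 and 347 on glucose. It rose 9.23-fold (log2 3.21 ± 0.31, limma adjusted p = 7.24e-06). CRC1, encoding the carnitine carrier of the inner membrane, read 1524, 999 and 892 on ethanol and 280, 214 and 243 on glucose and rose 4.53-fold (log2 2.18 ± 0.22). Neither gene had an ethanol signal near the glucose range. CAT2 and YAT2, which encode the other carnitine acetyltransferases, rose 2.88-fold and 2.59-fold, so 4 of the 5 tested genes of this list were higher and 0 lower, with a median of log2 1.53 against -0.04 over all genes. The fifth, the carnitine transporter AGP2, was at log2 0.98 and was not called. With only ethanol array 1, YAT1 and CRC1 kept their calls (log2 2.99 and 2.64), while CAT2 and YAT2 lost theirs there and with the 3'/5' ratio in the model (limma adjusted p = 0.219 and 0.144 for CAT2 and 0.182 and 0.094 for YAT2).

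Uptake and activation of ethanol and acetate changed in single genes. ACH1, a mitochondrial CoA transferase gene, read 2105, 2592 and 1543 on ethanol and 760.1, 518 and 616 on glucose, with no overlap (log2 1.71 ± 0.23, limma adjusted p = 0.000278). ADY2, an acetate transporter gene, rose 2.13-fold, with means of 2197 ± 310.4 on ethanol and 1032 ± 149 on glucose (SD, n = 3). ACS1, the acetyl-CoA synthetase gene of respiring cells, rose 2.12-fold (log2 1.09 ± 0.20). ADH2, whose enzyme oxidises ethanol, read 5669, 8227 and 6722 on ethanol and 2543, 4697 and 2525 on glucose, where array 2 stood above arrays 1 and 3 (log2 1.13 ± 0.28, limma adjusted p = 0.0388). Its call ended without ethanol array 2 or 3 or glucose array 1 or 3 (limma adjusted p up to 0.185), and its change was log2 0.53 against glucose array 2 alone. In the whole list of 15 alcohol and aldehyde dehydrogenases and acetyl-CoA synthetases, ACH1 included, 3 genes were higher and 0 lower, with a median of log2 0.36; ADH1, ADH3, ALD4 and ALD6 were at log2 -0.31, 0.58, 0.45 and 0.36 and were not called. Of 5 monocarboxylate and acetate transport genes ADY2 was the called gene, and the lactate permease gene JEN1 was at log2 -0.50. PYC1, encoding pyruvate carboxylase, rose 2.08-fold (log2 1.06 ± 0.27, limma adjusted p = 0.0439) among 12 genes of pyruvate metabolism with 1 call. The PYC1 call ended without ethanol array 1 or 2 or glucose array 1 or 3 (limma adjusted p up to 0.203). In the 3 further settings ACH1 kept its call and the calls of ADY2, ACS1, ADH2 and PYC1 all ended, with limma adjusted p of 0.19, 0.162 and 0.128 for ADY2 and 0.385, 0.283 and 0.34 for ACS1.

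In the mitochondria 4 of 16 TCA cycle genes rose and 0 fell (median log2 0.62), and the respiratory chain gave 1 rise and 1 fall. SDH1, a succinate dehydrogenase subunit gene, read 1226, 1350 and 1582 on ethanol and 631, 699 and 495 on glucose (log2 1.19 ± 0.19, limma adjusted p = 0.00165), and the groups were well apart. IDH1 rose 1.75-fold and IDH2 1.67-fold; both encode subunits of the NAD-linked isocitrate dehydrogenase. FUM1, encoding fumarase, rose 1.66-fold. The succinate-fumarate carrier gene SFC1 rose (log2 1.08 ± 0.19) and the dicarboxylate carrier gene DIC1 fell (log2 -0.95 ± 0.21), the 2 calls among 13 mitochondrial carboxylate carriers. Of 23 respiratory chain genes NDE2 rose and CYC7 fell, and the median was log2 0.06; of 16 ATP synthase genes 0 were called (median 0.13, limma). NDE2, an external NADH dehydrogenase gene, read 912, 1318 and 1171 on ethanol and 213, 317 and 392 on glucose (log2 1.91 ± 0.22, limma adjusted p = 3.72e-05). CYC7, the cytochrome c isoform of low oxygen and stress, read 15.5, 16.0 and 18.8 on ethanol and 73.8, 82.7 and 124 on glucose (log2 -2.45 ± 0.33). CYC7 was also the call among 12 markers of low oxygen; dissolved oxygen differed between the groups, and its part was not tested. The TCA list had 0 calls in the 3 further settings (medians 0.52, 0.45 and 0.70), where limma adjusted p was 0.229, 0.169 and 0.161 for SDH1. The DIC1 call ended in all 3 as well, and that of SFC1 with only ethanol array 1 and without glucose arrays 1 and 3 (limma adjusted p = 0.129 and 0.107). The calls ended on leaving out ethanol array 2 or glucose array 3 for IDH1, any array for IDH2, any but ethanol array 1 for FUM1, and ethanol array 1 or 3 or glucose array 2 or 3 for DIC1 (limma adjusted p up to 0.097, 0.213, 0.129 and 0.0905).

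AGX1, GCV1 and GCV2 of glycine metabolism rose on ethanol. AGX1, whose enzyme makes glycine from glyoxylate, read 3179, 4510.2 and 4176 on ethanol and 2200.1, 2185 and 1947 on glucose (log2 0.89 ± 0.21). GCV2 and GCV1, subunits of the mitochondrial glycine decarboxylase, rose 2.21-fold and 1.67-fold. All 3 genes had separate groups, and they were the 3 calls among 16 genes of serine, glycine and threonine metabolism (median log2 0.26). GCV3, another subunit gene, was at log2 0.67 and was not called; it read 4456 on glucose array 2 against 1693 and 1901 on arrays 1 and 3. LEU4, encoding the isopropylmalate synthase that draws acetyl-CoA into leucine, rose 1.91-fold (log2 0.94 ± 0.21, limma adjusted p = 0.0209), the call among 12 branched-chain amino acid genes. The GCV2 call held with any 1 array left out; those of AGX1 and LEU4 ended without ethanol array 2 or 3 or glucose array 1 or 3 (AGX1 also glucose array 2), and that of GCV1 without any 1 of the 6 arrays (limma adjusted p up to 0.149, 0.112 and 0.171). None of these 4 calls held in the 3 further settings, where limma adjusted p was 0.177, 0.101 and 0.162 for GCV2.

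Among regulators of carbon metabolism 2 genes rose and 1 fell of 28 tested (median log2 -0.05). REG2, a regulatory subunit gene of the protein phosphatase Glc7, read 1356, 2082 and 1879 on ethanol and 209, 246 and 258 on glucose, a rise of 7.38-fold (limma adjusted p = 3.72e-05). SIP4, an activator of gluconeogenic genes, read 245, 313 and 258 on ethanol and 44.5, 61.2 and 69.0 on glucose (log2 2.24 ± 0.31). MTH1, a corepressor of the hexose transporter genes, read 29.5, 40.0 and 34.4 on ethanol and 174, 102 and 147 on glucose (log2 -2.00 ± 0.34). None of these 3 genes overlapped between the groups. CAT8, the activator of SIP4, was at log2 -0.09 ± 0.42 and was not called, nor was ADR1, an activator of ADH2, at 0.51 ± 0.40, or HAP4, the activator subunit for respiratory genes, at 0.43 ± 0.18. REG2 kept its call in the 3 further settings; SIP4 lost it with only ethanol array 1 (limma adjusted p = 0.111) and MTH1 in all 3 (0.105, 0.13 and 0.261).

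Single genes of sugar uptake and breakdown fell on ethanol, and 3 of 16 glycolysis genes were called. HXK1, encoding a hexokinase of derepressed cells, read 230.3, 281 and 302 on ethanol and 1941, 1383 and 1845 on glucose, a fall of 6.33-fold (log2 -2.66 ± 0.25, limma adjusted p = 3.79e-06). TDH1, a minor glyceraldehyde-3-phosphate dehydrogenase gene, read 410.3, 586 and 820.1 on ethanol and 1123, 1622 and 1614 on glucose (log2 -1.30 ± 0.23). Both kept separate groups. The glycolysis list had 2 genes lower and 1 higher (median log2 -0.29), and the riser, TDH3, is described with the bright probe sets. HXK2, PFK1 and CDC19 were at log2 -0.64, -0.38 and -0.21 and were not called. With only ethanol array 1 the median of this list was log2 0.01, with 9 positive and 7 negative changes. HXK1 and TDH1 kept their calls in the 3 further settings.

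Of 11 hexose transporters and sensors 4 fell and 1 rose (median log2 -0.33). HXT4, a glucose transporter gene, read 21.2, 14.2 and 17.6 on ethanol and 83.7, 69.1 and 56.2 on glucose (log2 -1.98 ± 0.32). HXT2, a high-affinity transporter gene, read 892, 616 and 551 on ethanol and 1417, 1788 and 2029 on glucose (log2 -1.36 ± 0.22). HXT10 fell at a low level, with 1.30, 7.30 and 14.8 on ethanol, 2 of them below the floor, and 33.4, 21.0 and 34.6 on glucose. HXT5, the transporter of slow-growing cells, rose 1.88-fold (log2 0.91 ± 0.22, limma adjusted p = 0.0312). In these 4 genes the groups did not overlap; the fourth gene lower on ethanol was HXT7, named after its value was seen (log2 -0.80 ± 0.20), whose probe set may also read HXT6. SUC2, the secreted invertase gene, read 209, 91.3 and 154 on ethanol and 569, 419.6 and 608 on glucose (log2 -1.88 ± 0.30), and its second probe set was called too (log2 -1.43 ± 0.24). MAL11, an alpha-glucoside permease gene, read 112, 101 and 76.1 on ethanol and 510, 401 and 572 on glucose, a fall of 5.16-fold. They were the 2 calls among 11 maltose, galactose and sucrose genes (median log2 0.02). A probe set shared by the maltase genes MAL12 and MAL32 was also called lower. It kept its call in every alternative (log2 -3.78 to -2.48). IMA5, an isomaltase gene outside this list, was called lower as well (log2 -1.65 to -1.42 with single arrays left out). Its call ended without ethanol array 2 or 3 or glucose array 1 or 3 (limma adjusted p up to 0.0771). It also ended in the 3 further settings. MAL12, MAL32 and IMA5 were named after their values were seen. MAL11 kept its call in the 3 further settings, while the hexose list had 0 calls and SUC2 lost its call in all 3, with limma adjusted p of 0.296, 0.0986 and 0.063 for HXT4, 0.402, 0.0859 and 0.0517 for HXT2 and 0.231, 0.164 and 0.187 for SUC2. Leaving out single arrays ended the calls of HXT10 (ethanol 2, glucose 1 or 3), HXT5 (ethanol 2 or 3, glucose 1 or 2) and HXT7 (any but ethanol 1), with limma adjusted p up to 0.0719, 0.129 and 0.198.

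In the pentose phosphate pathway, whose oxidative steps yield NADPH, 3 genes fell and 1 rose. GND1, encoding phosphogluconate dehydrogenase, read 828, 749 and 629.9 on ethanol and 1600.3, 1458 and 1432 on glucose (log2 -1.03 ± 0.17, limma adjusted p = 0.00189). SOL3, encoding phosphogluconolactonase, fell 2.11-fold and TAL1, encoding transaldolase, 1.63-fold. RKI1, encoding ribose-5-phosphate isomerase, read 343, 257 and 234 on ethanol and 103, 121 and 93.3 on glucose (log2 1.38 ± 0.26). All 4 had separate groups. Of the 11 genes tested 10 had a negative change, and the median was log2 -0.70; ZWF1, the entry step, was at -0.77 and GND2 at -1.06, both without a call. Elsewhere in NADP metabolism IDP1, a mitochondrial isocitrate dehydrogenase that makes NADPH, rose 1.89-fold, and YEF1, an NADH kinase gene, read 49.8, 32.9 and 29.4 on ethanol and 256, 262 and 281 on glucose, a fall of 7.32-fold (limma adjusted p = 0.000286). Across 13 NAD kinases and NADP-linked dehydrogenases 2 rose and 2 fell. The calls of GND1, SOL3, TAL1 and IDP1 ended in all 3 further settings, with limma adjusted p of 0.287, 0.094 and 0.107 for GND1 and 0.545, 0.469 and 0.346 for SOL3. That of RKI1 ended with only ethanol array 1 and without glucose arrays 1 and 3 (limma adjusted p = 0.0759 and 0.252). The YEF1 call ended with only ethanol array 1 (log2 -2.42, limma adjusted p = 0.105) and with the 3'/5' ratio in the model (log2 -1.80, limma adjusted p = 0.087). Single arrays ended the calls of TAL1 (any but glucose 2) and IDP1 (any but ethanol 3), with limma adjusted p up to 0.169 and 0.133.

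**Figure D3:**
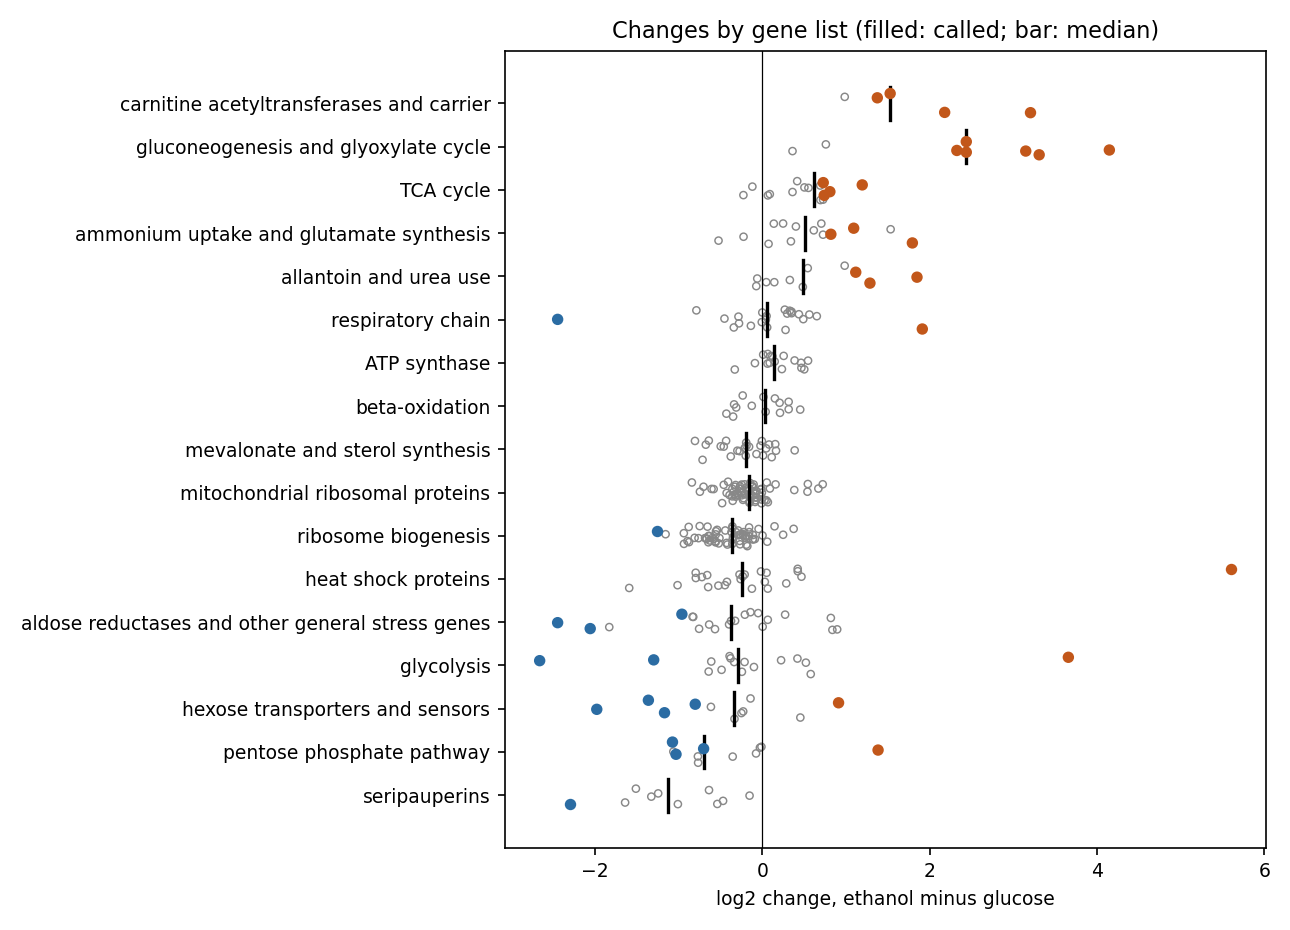
Log2 change, ethanol minus glucose, of each tested gene in 17 lists (points; filled points were called, orange higher and blue lower), with the list median as a black bar. The medians run from 2.44 for gluconeogenesis and the glyoxylate cycle to -1.13 for the seripauperins, and the filled points of the pentose phosphate pathway and hexose transporters lie mostly left of 0.

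Weak acid and stress genes gave large but few changes. Besides FDH1 and PDR12, SPI1, a wall protein gene of the weak acid response, read 71.8, 77.0 and 86.5 on ethanol and 264, 349 and 368 on glucose (log2 -2.05 ± 0.24). TPO2, a polyamine exporter gene, was higher, the call among 13 polyamine and cation transport genes, with 113, 171 and 171 on ethanol and 25.2, 37.9 and 33.7 on glucose (log2 2.22 ± 0.38). In neither gene did the groups overlap. Of 10 weak acid response genes 2 fell and 1 rose (median log2 -0.32); WAR1, the activator of PDR12, was at log2 0.35, and HAA1, the activator of TPO2, at -0.49, both without a call. PDR10, a plasma membrane exporter gene, rose 2.35-fold, the call among 13 drug efflux genes. SIP18, a dehydration protein gene, read 174, 216 and 305 on ethanol and 743, 956 and 1165 on glucose (log2 -2.06 ± 0.26, limma adjusted p = 9.69e-05). With CYC7 and GCY1, a glycerol dehydrogenase gene at log2 -0.96 ± 0.20, it made 3 falls and 0 rises among 21 general stress genes (median log2 -0.37). CCP1, encoding cytochrome c peroxidase, fell 1.98-fold, the call among 26 antioxidant enzymes. Trehalose and glycogen genes had 0 calls of 20 (TPS2 log2 -0.18, UGP1 log2 -0.29), and of 24 heat shock genes SSA1, a bright probe set, was the call. The calls ended without ethanol array 2 or 3 or glucose array 1 or 3 for PDR10, without ethanol array 2 or glucose array 3 for GCY1 and without any 1 array for CCP1 (limma adjusted p up to 0.11, 0.095 and 0.0923). In the 3 further settings SPI1 and SIP18 kept their calls, those of TPO2, PDR10 and CCP1 ended, with limma adjusted p of 0.437, 0.284 and 0.185 for TPO2, and that of GCY1 ended without glucose arrays 1 and 3 (limma adjusted p = 0.368).

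Cell wall genes moved both ways, 4 higher and 3 lower of 33 (median log2 -0.20). PIR3, encoding a wall protein linked to glucan, read 26.6, 28.5 and 40.5 on ethanol and 113, 246 and 149.6 on glucose (log2 -2.36 ± 0.37). UTR2, which encodes an enzyme that joins chitin to glucan, read 118, 124 and 59.9 on ethanol and 381, 269 and 279 on glucose (log2 -1.68 ± 0.28). Together with SPI1 these were the 3 genes lower, each without overlap. Of the 4 genes higher, CCW12 belongs to the bright probe sets, as does TIP1, named with CWP1 and GSC2 after their values were seen. CWP1, a mannoprotein gene, rose 2.18-fold and GSC2, a glucan synthase gene, 1.80-fold. GSC2 had 3 tested probe sets, of which only 1 was called, and their changes did not all have the same direction. The seripauperins, a family of near-identical subtelomeric genes, had 10 of 24 genes tested, all with a negative change (median log2 -1.13), and 1 call. That call, PAU7, read 37.4, 33.5 and 40.6 on ethanol and 50.0, 494 and 245 on glucose, so that glucose array 1 lay close to the ethanol arrays. It ended without any array but glucose 1 (limma adjusted p up to 0.148), and members of the family can share signal. The CWP1 call ended without ethanol array 2 or 3 or glucose array 1 or 3, and that of GSC2 without ethanol array 2 or any glucose array (limma adjusted p up to 0.11 and 0.117). The UTR2 call and those of the 4 genes higher ended in all 3 further settings, with limma adjusted p of 0.128, 0.162 and 0.176 for UTR2. PIR3 lost its call with the 3'/5' ratio in the model (limma adjusted p = 0.0968), and PAU7 there and with only ethanol array 1 (limma adjusted p = 0.365 and 0.578).

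Some genes of ammonium assimilation and of allantoin and urea use rose on ethanol. GDH3, a glutamate dehydrogenase gene of growth on ethanol, read 1317, 1802 and 1718 on ethanol and 508, 522 and 369 on glucose, a rise of 3.47-fold (limma adjusted p = 6.79e-05). GLT1, encoding glutamate synthase, read 1228, 1118 and 1029.7 on ethanol and 528, 627 and 441 on glucose (log2 1.09 ± 0.19), and MEP1, an ammonium permease gene, rose 1.76-fold. In all 3 genes the groups were apart, and they were the calls among 14 genes of ammonium uptake and glutamate synthesis, 3 higher and 0 lower (median log2 0.51). MEP2, a second ammonium permease gene, was at log2 1.53 ± 0.41 and missed the threshold (limma adjusted p = 0.0581). Of 11 genes for allantoin and urea use 3 rose and 0 fell (median log2 0.48): DUR3, a urea permease gene, read 251, 185 and 209 on ethanol and 55.1, 87.7 and 43.0 on glucose (log2 1.85 ± 0.39), and DAL2 (allantoicase) and DAL5 (allantoate permease) rose 2.44-fold and 2.17-fold. BAP2, a permease gene for branched-chain amino acids, read 106, 72.5 and 69.2 on ethanol and 419, 265 and 326 on glucose, a fall of 4.08-fold and the call among 20 amino acid permeases. GDH3 kept its call in the 3 further settings, while MEP1 lost it in all 3 and the allantoin list had 0 calls in each. GLT1 lost its call with only ethanol array 1 and without glucose arrays 1 and 3 (limma adjusted p = 0.0948 and 0.247), and BAP2 with only ethanol array 1 (limma adjusted p = 0.0561). Single arrays ended the calls of MEP1 (any but glucose 1), DUR3 (ethanol 3 or glucose 3), DAL2 and DAL5 (any but glucose 1), with limma adjusted p up to 0.17, 0.0867, 0.159 and 0.154.

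Metal, vitamin, phosphate and glycerol genes changed singly. COT1, a vacuolar zinc and cobalt transporter gene, rose 2.24-fold, with 589, 619 and 706 on ethanol and 286, 232 and 347 on glucose (log2 1.16 ± 0.21). BIO2, encoding biotin synthase, an iron-sulfur enzyme, rose 1.75-fold, and FIT3, a wall protein gene that helps to hold siderophores, read 216, 238 and 177 on ethanol and 539.8, 956 and 724 on glucose (log2 -1.79 ± 0.46, limma adjusted p = 0.0477). The groups were apart in all 3. COT1 was the call among 15 copper and zinc genes, BIO2 among 24 genes of reductive iron uptake and the iron regulon and among 25 vitamin genes, and FIT3 among 6 siderophore genes. PHO84, a phosphate permease gene, read 11.3, 11.9 and 13.7 on ethanol and 924, 35.4 and 37.9 on glucose, with ethanol arrays 1 and 2 below the floor of 12. The size of its change, log2 -3.10, rests in large part on glucose array 1 and was -1.50 against glucose array 2 alone. Its call held without glucose array 1. PHO84 was the call among 18 phosphate genes (median log2 0.00). STL1, a glycerol symporter gene, read 254, 193 and 233 on ethanol and 59.1, 69.9 and 84.8 on glucose, a rise of 3.19-fold among 10 glycerol genes, where GCY1 fell. The calls of BIO2, FIT3 and STL1 ended without any 1 array and that of PHO84 without any ethanol array (limma adjusted p up to 0.137, 0.179, 0.126 and 0.155). The calls of BIO2, FIT3 and PHO84 ended in all 3 further settings, that of COT1 with only ethanol array 1 and with the 3'/5' ratio in the model (limma adjusted p = 0.352 and 0.306) and that of STL1 with only ethanol array 1 and without glucose arrays 1 and 3 (limma adjusted p = 0.48 and 0.34).

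Many processes gave no call by limma. This held for beta-oxidation (0 of 14 genes, CTA1 log2 0.21, TES1 0.04), peroxisome biogenesis (0 of 18, PEX11 0.36), mevalonate and sterol synthesis (0 of 25, ERG11 0.16), fatty acid synthesis (0 of 15, OLE1 0.20) and phospholipid synthesis (0 of 23, OPI3 -0.09). It also held for sulfur and methionine (0 of 25, MET17 0.65), arginine (0 of 8), lysine (0 of 9), aromatic amino acids and histidine (0 of 22), purines (0 of 15), pyrimidines (0 of 12), the proteasome (0 of 33, PRE6 -0.62), autophagy (0 of 25, PEP4 0.21), histones (0 of 4), cyclins and cell cycle genes (0 of 25) and mitochondrial import (0 of 24). The mating list had 0 calls of 14, and sterol uptake, proline and GABA use and flocculins had 0 of 8, 10 and 4. The sporulation list had 0 of 19 by brightest probe set, with CDA2 represented by its second probe set. Across all probe sets 1153 had an unadjusted p under 0.05, and a missed threshold does not show equal levels.

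Ribosome biogenesis genes leaned to lower signals on ethanol, which was not seen with ethanol array 1 alone. Of 63 ribosome biogenesis genes 58 had a negative change, the median was log2 -0.36, and 1 was called, HAS1, a nucleolar RNA helicase gene. HAS1 read 78.1, 57.7 and 43.9 on ethanol and 170.4, 132 and 122 on glucose (log2 -1.26 ± 0.32), with no overlap. With only ethanol array 1, 32 of the 63 changes were positive and 31 negative. Their median was then 0.03, against 0.02 over all tested probe sets. With the 3'/5' ratio in the model the list median was 0.14, as was the median over all tested probe sets. Mitochondrial ribosomal proteins had 0 calls of 67, with 56 negative changes and a median of -0.16. With the 3'/5' ratio in the model their median was 0.00, still below the 0.14 over all tested probe sets in that setting. Of 47 large-subunit ribosomal protein genes 1 rose (RPP1B), and of 33 small-subunit genes 2 rose (RPS26A and RPS2), with medians of 0.03 and -0.06. RPS2 read 3253, 3800 and 3637 on ethanol and 1454, 2669 and 1329 on glucose, and its change of log2 1.04 was 0.41 against glucose array 2 alone. The HAS1 call ended without any array but ethanol 1, and that of RPS2 without any but glucose 2 (limma adjusted p up to 0.212 and 0.194). Neither held in the 3 further settings, nor did those of RPP1B and RPS26A.

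Some of the largest rises sat on probe sets at the top of the signal range. The highest signal was 3732 on glucose array 1 and 3765 on glucose array 3, so the 17 probe sets above 4000 on glucose array 2 were by that choice lower on both. The median of their ethanol means was 6308, and their medians were 4571 on glucose array 2 and 1928 and 2184 on glucose arrays 1 and 3. Of these 17, 9 were called higher on ethanol and 0 lower. SSA1, a cytosolic chaperone gene, read 7324, 10973 and 12467 on ethanol and 0.0, 7377 and 98.1 on glucose, where 0.0 is the deposited signal and was raised to the floor. RPS26A, a ribosomal protein gene, read 4326, 6098 and 8499 on ethanol and 166, 4243 and 3.10 on glucose. YDR524C-B, an uncharacterised gene, read 7413, 10923 and 9630.1 on ethanol and 237, 6342 and 141 on glucose. In each of the 3 the spread among the glucose arrays was as wide as the change. Their log2 changes of 5.61, 4.90 and 3.95 were 0.44, 0.52 and 0.54 against glucose array 2 alone. TDH3, encoding the main glyceraldehyde-3-phosphate dehydrogenase, read 4828, 7095 and 6431 on ethanol and 281, 3909 and 99.6 on glucose, just below 4000 on array 2 (log2 3.66, and 0.63 against glucose array 2 alone). The wall protein gene CCW12 had log2 1.87, and 0.66 against glucose array 2 alone. RPP1B, a ribosomal protein gene at 3522 on glucose array 2, had log2 1.38, and 0.39 against glucose array 2 alone. The calls of these 6 genes ended without ethanol array 2 or 3 or glucose array 1 or 3, with limma adjusted p up to 0.134, 0.143, 0.103, 0.0937, 0.109 and 0.164, and none held in the 3 further settings. Other probe sets of YDR524C-B, RPS26A and RPP1B were not called (RPS26A log2 0.32, RPP1B -0.03, YDR524C-B 1.40 and 0.50).

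**Figure D4:**
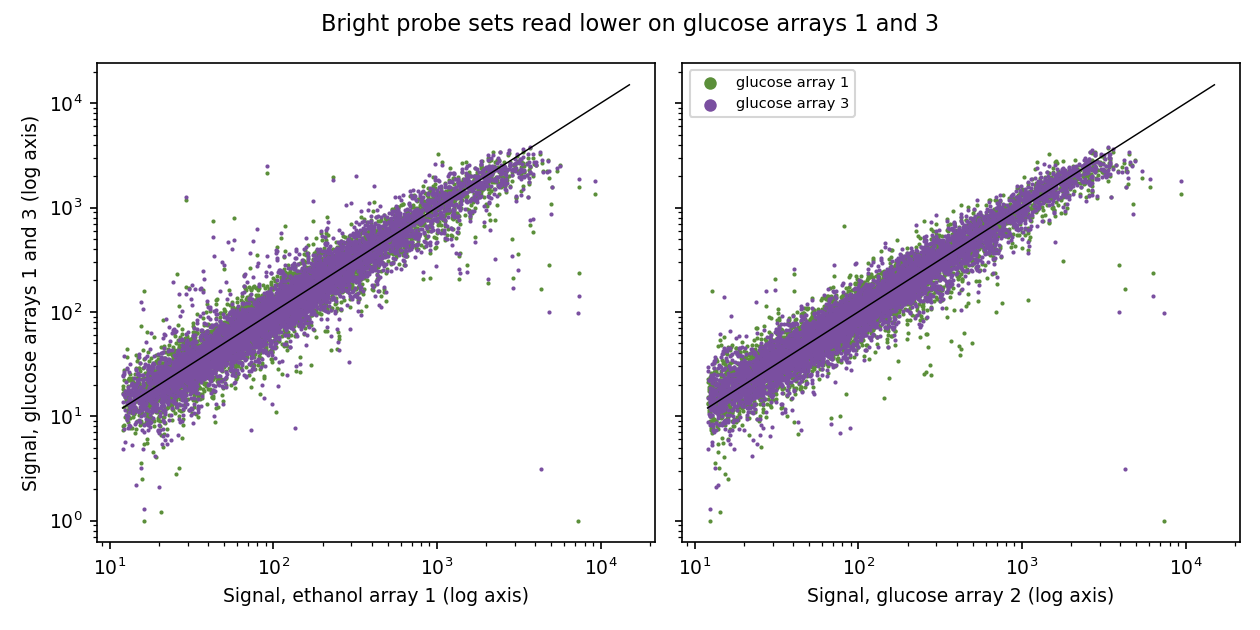
Signals on glucose arrays 1 (green) and 3 (purple) against those on ethanol array 1 (left) and glucose array 2 (right). Both panels show the tested probe sets with a signal above 12 on both ethanol array 1 and glucose array 2. Both axes are logarithmic, vertical values below 1 are drawn at 1, and the line marks equal signals. On arrays 1 and 3 the points stop at 3732 and 3765, while the horizontal axes run on to 9190 and 9355.

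Several genes with strong and separate groups have little known function or stood outside the lists. YJR115W, uncharacterised, read 5.90, 71.1 and 40.2 on ethanol and 132, 289 and 292 on glucose (log2 -2.78 ± 0.50, limma adjusted p = 0.00378). Its call ended without glucose arrays 1 and 3 (limma adjusted p = 0.0517). YPR145C-A, also uncharacterised, read 24.3, 17.5 and 23.4 on ethanol and 33.6, 174 and 193 on glucose, with glucose array 1 close to the ethanol range (log2 -2.28), and its call ended without ethanol array 2 or 3 or glucose array 2 or 3 (limma adjusted p up to 0.131), as it did with only ethanol array 1 and with the 3'/5' ratio in the model (0.589 and 0.284). Named after their values were seen, BDH1, a butanediol dehydrogenase gene, read 214, 257 and 244 on ethanol and 807, 931 and 641 on glucose (log2 -1.72 ± 0.18, limma adjusted p = 1.78e-05), and YGR067C, a putative zinc finger protein gene, read 824, 824 and 585 on ethanol and 207, 219 and 239 on glucose (log2 1.73 ± 0.21). Both kept their calls in the 3 further settings. A further 32 called probe sets had no gene name, 29 higher and 3 lower. Of 17 genes with a call and several tested probe sets, all probe sets were called in 3, FDH1 and SUC2 among them, and all had the same direction in 8.

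Some called genes lay side by side. Of 4497 pairs of neighbouring genes that were both tested, 204 held at least 1 called gene and 9 held 2, of which 4 pairs were both lower, 3 both higher and 2 opposite. Of all tested genes 2.63% were called, and whether the 9 pairs exceed what that share gives was not tested. YEF1, UTR2 and CYC7 are adjacent and all fell. MDH2, a cytosolic malate dehydrogenase gene, and TRM13, a transfer RNA methylase gene, both rose (log2 2.44 and 1.76), as did NDE2 and its neighbour YDL085C-A (log2 1.91 and 1.11). HAS1 and TDA1, a kinase gene, both fell (log2 -1.26 and -1.73). YDR524W-C and YDR524C-B both rose (log2 1.74 and 3.95), the latter by the bright probe set described above. BAP2 fell beside TIP1, which rose. YDR524W-C, TRM13, YDL085C-A, TDA1 and TIP1 were named after their values were seen. The YDR524W-C call ended without ethanol array 2 or 3 or glucose array 2 (limma adjusted p up to 0.146). It also ended with only ethanol array 1 and with the 3'/5' ratio in the model. Without glucose array 3 the call of TRM13 ended (limma adjusted p = 0.0502), as did that of TDA1 without ethanol array 2 or 3 or glucose array 1 or 3 and that of YDL085C-A without ethanol array 2 or glucose array 2 (limma adjusted p up to 0.0739 and 0.0994). The TIP1 call ended without ethanol array 2 or 3 or glucose array 1 or 3 (limma adjusted p up to 0.119), and its change was log2 0.62 against glucose array 2 alone. In the 3 further settings the calls of TIP1, HAS1, TDA1 and UTR2 ended, that of YDL085C-A ended with only ethanol array 1 and with the 3'/5' ratio in the model (limma adjusted p = 0.366 and 0.16), and that of TRM13 without glucose arrays 1 and 3 (0.156).

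Setting the ethanol response against the other carbon sources showed where it differed. The difference between ethanol against glucose and acetate against glucose is ethanol against acetate, and there limma called 2 of 6758 probe sets (0.0296%), with 270 at an unadjusted p under 0.05. CDA2 read 163, 154 and 131 on ethanol and 38.5, 33.7 and 37.5 on acetate (log2 2.03 ± 0.27, limma adjusted p = 0.00262), with means of 2.23 ± 1.23 on maltose and 9.10 ± 4.39 on glucose. The second CDA2 probe set went the other way, with 116, 99.9 and 170 on ethanol and 196, 200.2 and 192 on acetate, also without overlap, and was not called (log2 -0.64 ± 0.46, limma adjusted p = 1), so the 2 probe sets disagree on the direction. SIT1, a siderophore permease gene named after its value was seen, read 79.7, 103 and 82.3 on ethanol and 615, 369 and 566 on acetate (log2 -2.52 ± 0.33, limma adjusted p = 0.00262), and ethanol did not differ by a call from glucose (102, 97.0 and 63.6). For SIT1 and the called CDA2 probe set the ethanol and acetate arrays did not overlap, and both calls held with any 1 of these 6 arrays left out. No other probe set was called between ethanol and acetate, which does not show equal levels. The means on ethanol and acetate were, for example, 45.5 ± 10.6 and 43.0 ± 19.8 for PDR12, 1772 ± 375 and 1256 ± 332 for REG2 and 1125 ± 99.6 and 734 ± 63.4 for GLT1.

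The sugar used as the reference mattered for a few genes. The difference between ethanol against glucose and ethanol against maltose is maltose against glucose, where limma called 14 of 6758 probe sets (0.207%), with 818 at an unadjusted p under 0.05. SUC2 read 123, 164 and 238 on maltose, close to its ethanol signals, and was lower there than on glucose (log2 -1.64 ± 0.30, limma adjusted p = 0.0232). HXT4 read 21.9, 6.80 and 20.2 on maltose (log2 -1.98 ± 0.32, limma adjusted p = 0.00731) and HXT10 12.5, 9.70 and 9.10 (log2 -1.25 ± 0.24, limma adjusted p = 0.0311). For these 3 genes ethanol had no called difference from maltose (log2 -0.24 ± 0.30, -0.00092 ± 0.32 and 0.08 ± 0.24). MAL11 read 3336, 4457 and 2582 on maltose, above both other sources (log2 2.79 ± 0.24 for maltose against glucose), so its fall on ethanol was -2.37 against glucose and -5.15 ± 0.24 against maltose. FDH1 averaged 1368 ± 300.3 and PDR12 536 ± 254 on maltose (SD, n = 3), with no called difference from glucose (limma adjusted p = 0.546 and 0.649). The maltose calls ended without glucose array 1 for HXT4, and without maltose array 1 or 2 or glucose array 1 or 3 for HXT10 and this SUC2 probe set (limma adjusted p up to 0.0623, 0.195 and 0.165), while the second SUC2 probe set and MAL11 kept theirs.

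Acetate against maltose is a comparison that shares no array with ethanol against glucose, although acetate arrays 2 and 3 also had high actin ratios (10.2 and 13.1). Both comparisons came from the same fit and shared its estimate of the spread, so their calls are not independent. A probe set with a small estimate is easier to call in both, and the part of this in the shares below was not tested. Of the 120 probe sets higher on ethanol, 80 were called higher on acetate than on maltose (8.3% of all), and of the 66 lower ones 41 were called lower (3.58% of all). In all, 178 of the 186 had the same sign in both comparisons. Maltose array 2 stood apart, with a median signal of 22.8 against 41.8 and 47.8 on the other two; without it the counts were 72 and 39 (4.11% and 3% of all).

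**Figure D5:**
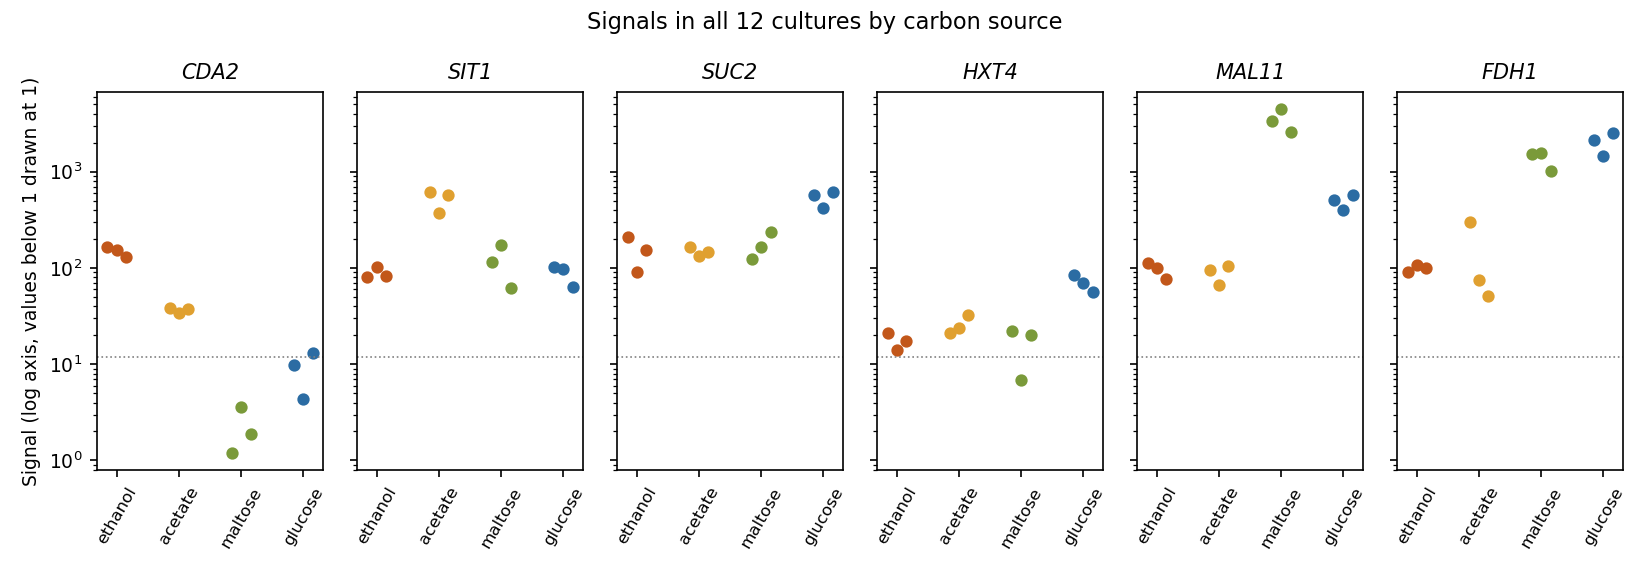
Signals on all 12 arrays (log axis, values below 1 drawn at 1) of 6 genes by carbon source, with the floor of 12 dotted. The called CDA2 probe set, which is the one drawn, steps down from ethanol to acetate to the sugars, unlike the gene's second probe set; SIT1 is high on acetate alone, SUC2 and HXT4 are high on glucose alone, and FDH1 is low on ethanol and acetate.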

How the data were processed

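RNA from 12 chemostat cultures was read on Affymetrix Yeast Genome S98 arrays, 1 array per culture. The deposited values are signal intensities, 1 per probe set, all scaled to about the same mean. Per the submitters' processing notes, MAS5 made those of the ethanol, acetate and maltose arrays; for the glucose arrays no label names the software, so it is not given in the sources used. Gene names come from the platform annotation, brought up to date through RefSeq gene IDs.

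Signals were brought to a common 2% trimmed mean, raised to a floor of 12 and taken to log2. Values printed are deposited signals. A fold change of a dim gene is understated by the floor. limma 3.58.1 in R 4.3.3 fitted 1 mean per carbon source over all 12 arrays, which share 1 estimate of the spread, with an intensity trend, and p-values were adjusted by the Benjamini-Hochberg method over 6758 probe sets. Differences between comparisons were tested as contrasts of the same fit. The fit was tested on simulated data. The number of arrays limits the precision. Groups came from the sample titles.

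Genes of several probe sets are represented by the brightest. Named were the 15 highest and 15 lowest changes among calls of 1 gene whose groups do not overlap, up to 4 called members of each of 62 gene lists or its 2 brightest members where none was called, and the markers PCK1, FBP1, CDA2, FDH1 and PDR12; lists that are only summarised may leave members out. Members and lists were chosen with earlier results of these data known. Alternatives covered scaling, floor, filter, fit, RNA quality, single arrays, the letter in the sample names and a replicate block. Sequences were not used here.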

Additional observations from a re-analysis of the deposited data

Results flagged for a closer look

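Actin's 3' and 5' control probe sets were not part of the gene comparison. Their signal ratio was 9.27 on ethanol array 2 and 13.98 on ethanol array 3, above the 1.84 to 2.60 of the glucose arrays. Ethanol array 1 had 3.31. The second control transcript, YER148W, gave 3.64, 8.08 and 10.1 on the ethanol arrays and 2.35, 3.01 and 2.77 on the glucose arrays. The actin ratios were 2.78, 10.2 and 13.1 on acetate arrays 1, 2 and 3 and 2.95, 2.96 and 1.82 on the maltose arrays. The high ratios were thus on arrays 2 and 3 of both ethanol and acetate. The part of these ratios in the results was not tested beyond the values given with ethanol array 1 alone and with the ratio in the model.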

How the results depend on the processing

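No call between ethanol and glucose cultures changed sign under any alternative, and 26 of the 186 stayed called in every alternative that tested them. In the order all calls, higher, lower and at least 2-fold, against 186, 120, 66 and 149, there were 107, 68, 39 and 82 with no filter on dim probe sets, 1126, 606, 520 and 381 with array weights, 42, 27, 15 and 42 with the actin and YER148W 3'/5' ratios in the model, 34, 18, 16 and 34 with only ethanol array 1, and 70, 33, 37 and 70 without glucose arrays 1 and 3. Without the intensity trend 120 were called, 72 of them higher, and with only the arrays of code letter P 186 were higher. Leaving out single replicates gave 76 to 244 calls, 44 to 134 higher, 32 to 110 lower and 72 to 219 at least 2-fold. Of the 186 calls, 33 held with only ethanol array 1, 40 with the ratios in the model and 47 without glucose arrays 1 and 3, where the lone array is assumed to vary like the other groups. The causes of these losses were not tested. Leaving out arrays also makes a group smaller, while the fit with the ratios in the model kept all 12 arrays. Ethanol against acetate gave 2 calls, and 1 with a floor of 1 or above 12 on all 6 arrays, 0 with a mean signal of at least 100 or only ethanol array 1, 4 with code letter P alone and 436 with array weights. Maltose against glucose gave 14 calls, and 7 with a mean signal of at least 100 or without glucose arrays 1 and 3, 433 with array weights, 30 with code letter P alone, 23 with the letter as a block and 9 to 41 without single ethanol or glucose replicates. Chosen after seeing the data, the fit without maltose array 2 gave 261 calls. With a replicate block 225 were called, 141 higher and 84 lower. The deviations of same-numbered arrays correlated at 0.0937, 0.00541 and 0.229, and ethanol array 1 correlated most with glucose array 2 (0.144). So few and small correlations cannot decide whether the numbers pair the cultures. Signals near 12 and those near the top of the range on glucose arrays 1 and 3 limit what can be measured.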

Other observations

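Glucose array 1 stood apart from glucose arrays 2 and 3 in a few genes, picked after their values were seen. SPS100, a spore wall gene, read 53.0, 56.7 and 58.8 on the ethanol arrays and 44.1, 422 and 466 on the glucose arrays and was not called (log2 -1.87 ± 0.59, limma adjusted p = 0.108). GRE1, a stress hydrophilin gene, read 319, 375 and 203 on ethanol and 307, 1779 and 1995 on glucose and was not called (log2 -1.83 ± 0.54, limma adjusted p = 0.0827). PAU7 and YPR145C-A were low on glucose array 1 as well, while PHO84 was high there. Against glucose array 2 alone the median of the 10 tested seripauperin genes was log2 -2.11, against -1.13 with all 3 glucose arrays. In that setting the median over all tested probe sets was 0.03. The value of -2.11 rests on 1 glucose array, and members of this family can share signal. SIT1 was at 115, 174 and 62.5 on maltose, so acetate (615, 369 and 566) was the carbon source with the highest signals of this siderophore permease gene among the 4. The maltose genes MAL31 and IMA1 did not differ by a call between ethanol and glucose (log2 -0.28 ± 0.25 and 0.02 ± 0.34).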
